A study of Mus musculus with 16 samples.

Results

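The comparison described here is that of Foxp3+ and Foxp3- CD4+ T cells taken directly from the animal, without culture. It rests on the 8 arrays labelled ex vivo, of 16 in the whole series, and they were chosen by their labels alone. The 4 Foxp3+ arrays hold cytosolic mRNA (arrays 1 and 5) and polysome-associated mRNA (arrays 2 and 6), and the 4 Foxp3- arrays hold cytosolic mRNA (arrays 3 and 7) and polysome-associated mRNA (arrays 4 and 8). Polysome-associated means mRNA that carried at least 3 ribosomes in a sucrose gradient. The donors were female Foxp3-GFP knock-in reporter mice aged 6 to 12 weeks, in which GFP marks Foxp3+ cells, and both lymph nodes and spleens were used. CD4+ cells were enriched with magnetic beads and then sorted on CD4 and GFP, with cycloheximide in all buffers of both subsets to hold ribosomes on the mRNA. The animals carried no other genetic change and received no treatment according to the sources used here. RNA of 2 experiments was pooled for each ex vivo sample, so an array is not 1 animal, and each subset was measured as duplicates in each RNA fraction. The labels do not say which cytosolic and polysome array came from the same preparation, so the 4 arrays of a subset may stand for 2 independent preparations, and p-values over 4 against 4 arrays may then be too small. No marker of naive or antigen-experienced cells was part of the gate, so each subset may hold both.

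Regulatory T cells are CD4+ T cells that restrain immune responses, and the transcription factor Foxp3 defines and maintains them. They are known for constant surface display of the high-affinity IL-2 receptor, constant expression of the inhibitory receptor CTLA-4 and repression of their own IL-2 production. Part of them are antigen-experienced even in unchallenged animals. Most other CD4+ T cells of lymph nodes and spleen are quiescent naive cells, kept in circulation by CCR7 and S1PR1 and kept alive by IL-7.

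Values are log2 intensities as the authors normalized them, so a difference of 1 is a 2-fold difference, and a gene is called at an adjusted p under 0.05 (limma, 8 arrays, RNA fraction as a blocking term, Benjamini-Hochberg over all 16475 genes). Of these genes, 4868 (29.5%) were called, 2352 (14.3%) higher and 2516 (15.3%) lower in Foxp3+ cells. At least 2-fold apart and called were 1285 genes (7.8%), 408 (2.48%) higher and 877 (5.32%) lower, and the median difference over all genes was 0.10. The count of called genes was 1130 when the spread was estimated over all 16 arrays, and 3055 without array 3, a cytosolic Foxp3- array. Centring each array on its median moved the share of higher among called genes from 48.3% to 34.5%, and quantile normalization moved the share of higher among the 2-fold genes from 31.8% to 42.5%. The balance between higher and lower calls therefore depended on scaling, with fewer higher than lower calls under each scaling tried.

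**Figure D1:**
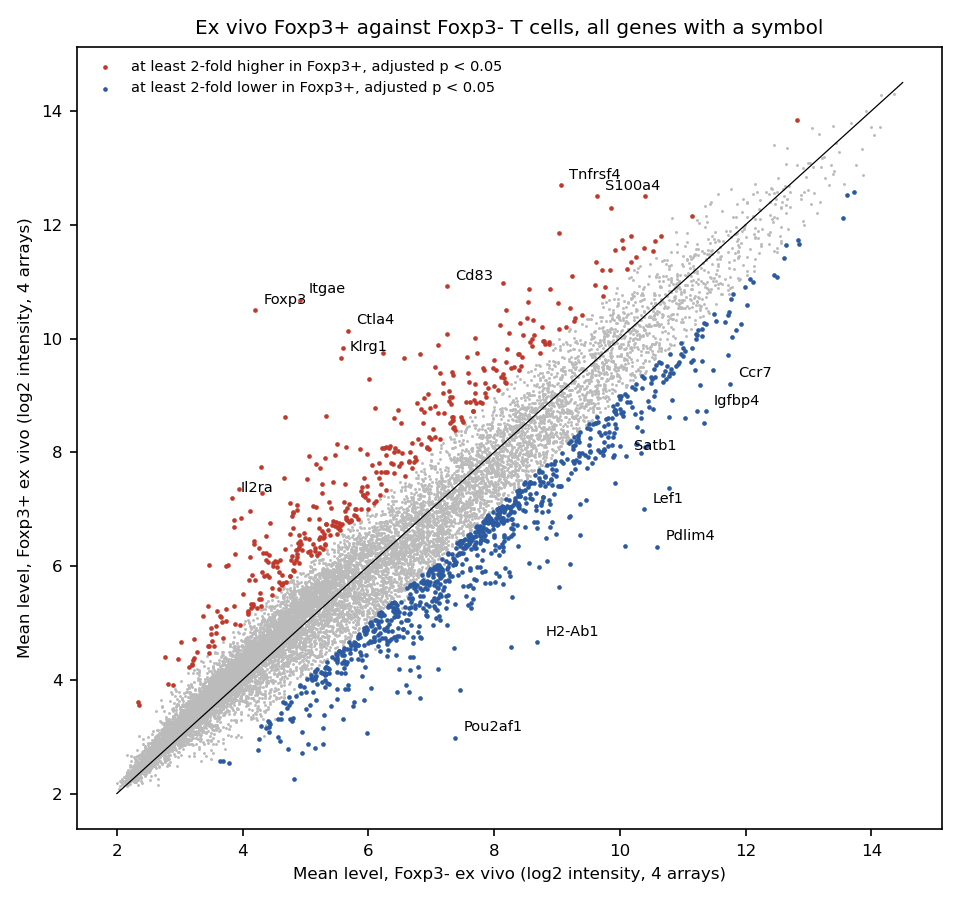
Mean level of every gene with a symbol on the 4 ex vivo Foxp3- arrays (x axis) and the 4 ex vivo Foxp3+ arrays (y axis), both as log2 intensity, with genes at least 2-fold apart and called in red (higher in Foxp3+) and blue (lower), and the line of equal levels. Foxp3 and Itgae lie furthest above the line, Pou2af1, Pdlim4 and H2-Ab1 furthest below, and more 2-fold genes lie below the line than above it.

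A control for RNA quality moved with the subset. The arrays carry probe sets for the 3' end, the middle and the 5' end of actin and Gapdh mRNA, and 3' minus 5' grows when 5' ends are lost from the RNA or not reached in amplification. For actin this difference was 4.35 ± 0.20 (SD, n = 4) on Foxp3+ arrays (4.16 to 4.64) and 0.97 ± 0.27 (SD, n = 4) on Foxp3- arrays (0.82 to 1.38). For Gapdh it was 3.82 ± 0.27 against 2.81 ± 0.46 (SD, n = 4 each). The actin control itself differed by -0.07 at the 3' end, -0.94 in the middle and -3.45 at the 5' end between Foxp3+ and Foxp3- cells, and the actin gene Actb, measured by its own probe set, was called lower by -1.15 (SE 0.14). The difference seen for actin thus depended on where in the transcript it was read. The activated arrays of the series showed no such gap, with -0.43 ± 0.13 for Foxp3+ and -0.28 ± 0.07 for Foxp3- cells (SD, n = 4 each) for actin. The interquartile range of all genes was also narrower on the Foxp3+ arrays, 3.06 ± 0.04 against 3.43 ± 0.08 (SD, n = 4 each). Among the 4119 brightest genes the median difference was -0.21 and among the 4119 dimmest it was 0.14, and 453 of the 877 genes lower by at least 2-fold were among those brightest ones. The part of the 3' to 5' gap in the subset differences was not tested.

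**Figure D2:**
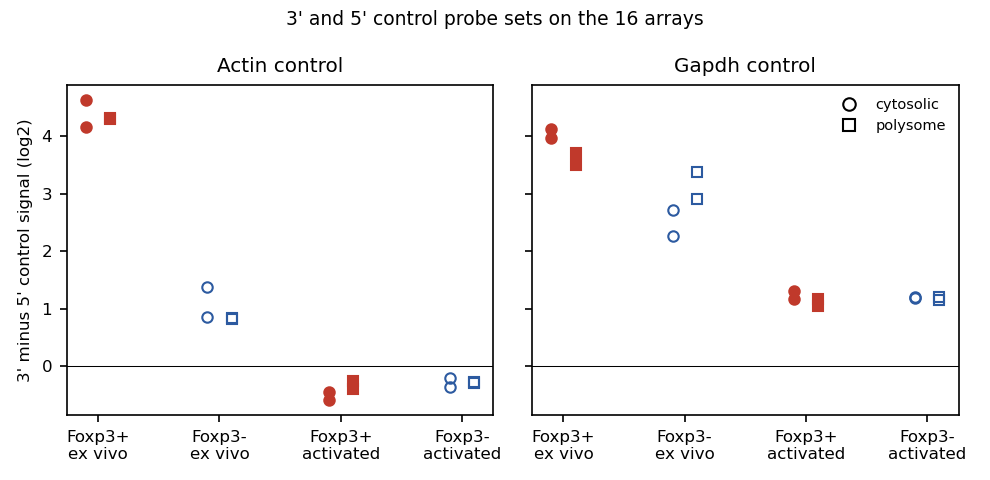
Difference between the 3' and the 5' control probe set (log2) for actin and Gapdh on each of the 16 arrays, by subset and state, with circles for cytosolic and squares for polysome-associated mRNA. The ex vivo Foxp3+ arrays lie from 4.16 to 4.64 for actin, above the ex vivo Foxp3- arrays at 0.82 to 1.38, while the activated arrays of both subsets lie at or below -0.20 for actin.

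The sorting gene came first as a check of the labels. Foxp3 stood at 10.29 and 10.65 in cytosolic and 10.46 and 10.59 in polysome-associated mRNA of Foxp3+ cells, and at 3.74, 3.75, 4.57 and 4.74 in Foxp3- cells. All arrays matched their labels. Its difference of 6.30 (SE 0.18) was the largest of all genes, and as the cells were sorted on it this is no finding.

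The labelled cell type was checked on T cell markers. The CD3 chains were bright in both subsets: Cd3d lay from 12.1 to 12.6 on Foxp3+ arrays and from 12.4 to 12.8 on Foxp3- arrays, and Cd3e was higher in Foxp3+ cells by 0.51 (SE 0.13). Of 7 measured CD4 T cell markers, Cd3e was called higher and Cd3g, Cd4 and Cd28 lower. The CD8 chain Cd8a lay between 3.27 and 3.90 on all 8 arrays, below the lowest array median of 4.84. All 6 markers of regulatory T cells were called higher in Foxp3+ cells, by 0.92 to 6.30. Among all genes 14.3% were called higher and 15.3% lower. In bulk RNA of a sorted subset, fewer cells that hold an mRNA and less of it per cell cannot be told apart.

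The genes furthest apart between the subsets were led by Foxp3, Itgae and Ctla4 on the higher side and by Pou2af1, Pdlim4 and H2-Ab1 on the lower side. By a rule that asked for a call, for no overlap of arrays in either fraction (the case for 6465 genes, 39.2%) and for a level above the median in the higher subset, the 15 largest differences in each direction were taken from 3420 genes. They ran from 3.10 to 6.30 on the higher side (8.57-fold to 78.8-fold) and from -2.83 to -4.40 on the lower side (7.09-fold to 21.1-fold), and all 30 kept their call and direction under the 21 alternatives tried. In 5 of the 15 higher and 8 of the 15 lower genes the subset with less mRNA had a mean under the lowest array median, where the size of a difference is less certain.

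**Figure D3:**
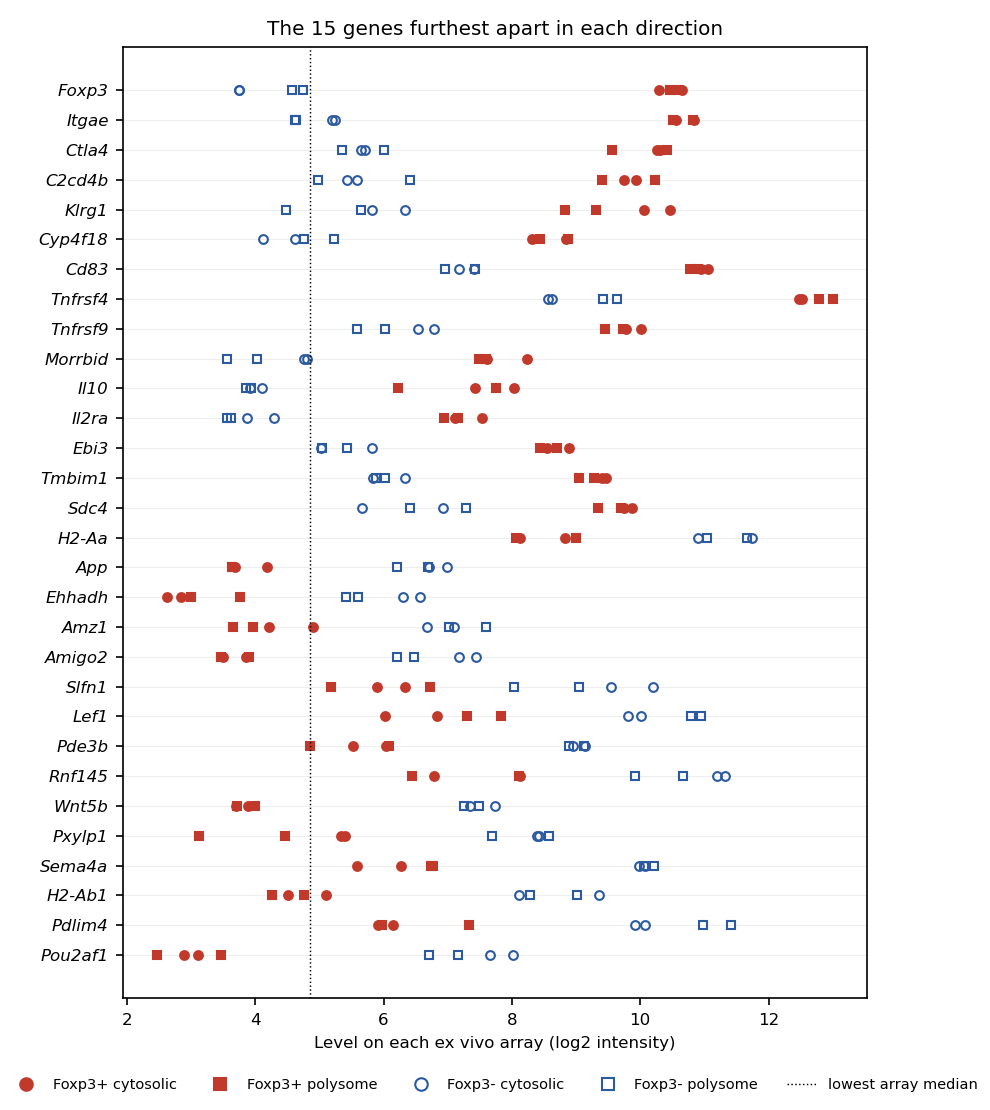
Level on each of the 8 ex vivo arrays (log2 intensity) for the 15 genes furthest apart in each direction, ordered by difference, with Foxp3+ arrays filled red and Foxp3- arrays open blue, circles for cytosolic and squares for polysome-associated mRNA. In each of the 30 genes the 4 arrays of the higher subset lie above the 4 of the lower subset, and the dotted line marks the lowest array median of 4.84.

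Transcription factors known from regulatory T cells were divided between both directions. Of 22 measured, 11 were called higher and 4 lower (68.2% called, against 29.5% of all genes). At least 2-fold apart were 7 and 4 of these, and the list median was 0.56. Beside Foxp3 the clearest was Nfil3, a basic leucine zipper repressor, at 7.78 and 7.83 in cytosolic and 8.27 and 7.69 in polysome mRNA of Foxp3+ cells against 5.47, 5.30, 5.19 and 5.27 in Foxp3- cells. The subsets did not overlap, and the difference was 2.59 (SE 0.15, adjusted p = 1.5e-05). The Ikaros family members Ikzf4 (Eos) and Ikzf2 (Helios) were higher by 1.30 (SE 0.14) and 1.25 (SE 0.25). Ikzf2 was dim in both subsets, with means of 4.82 and 3.57. Bhlhe40 (1.56), Maf (1.22), Prdm1 (1.12), Irf4 (0.89), Gfi1 (0.86) and Batf (0.79) were also called higher. These 4 fell: Lef1, a partner of beta-catenin that marks naive T cells, Satb1, a chromatin organiser, Bach2, a repressor of effector programs, and Tbx21 (T-bet), the factor of type 1 helper cells. Lef1 lay from 6.02 to 7.84 on Foxp3+ arrays and from 9.81 to 10.95 on Foxp3- arrays, a difference of -3.39 (SE 0.19, adjusted p = 1.5e-05). For Satb1 the difference was -2.16 (SE 0.21), for Bach2 -2.04 (SE 0.27) and for Tbx21 -1.17 (SE 0.26).

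The IL-2 receptor chains Il2ra and Il2rb and the feedback gene Cish were higher in Foxp3+ cells, while Il7r, Tgfbr2 and Tgfbr3 were lower. Of 36 cytokine receptor and signalling genes, 6 were called higher and 7 lower (36.1% called, against 29.5% of all genes). The list median was -0.14. Il2ra (CD25), the chain that gives the receptor its high affinity, stood at 7.12 and 7.54 in cytosolic and 7.17 and 6.94 in polysome mRNA of Foxp3+ cells, against 3.87, 4.28, 3.55 and 3.62 in Foxp3- cells. Il2rb, a chain shared with the IL-15 receptor, was higher by 2.07 (SE 0.16, adjusted p = 7e-05). Cish, an inhibitor induced by STAT5, lay from 10.73 to 10.99 against 8.59 to 9.08, a difference of 1.99 (SE 0.12). Il2ra, Il2rb and Cish were thus each apart on all 8 arrays. The decoy receptor Il1r2, which binds IL-1 without signalling, was higher by 2.88 (SE 0.22), and Il12rb1, a chain of the IL-12 receptor, by 2.10. Il7r, the receptor chain for IL-7, was lower at 6.14 to 7.35 against 8.48 to 9.59, a difference of -2.14 (SE 0.30, adjusted p = 0.0012). The TGF-beta receptors Tgfbr2, which carries the kinase that starts signalling, and Tgfbr3, a co-receptor, were lower by -1.76 (SE 0.13) and -2.23 (SE 0.10). Il17ra, a chain of the IL-17 receptor, had the lowest value of the list at -2.72 (SE 0.37). Of the STAT factors, Stat3 (-0.82) and Stat5b (-0.90) were called lower.

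Inhibitory and costimulatory receptors were called in both directions. Of 29 measured, 8 were called higher and 3 lower (37.9% called, against 29.5% of all genes), with a median of 0.07. CTLA-4, which takes CD80 and CD86 away from antigen-presenting cells, was first: Ctla4 read 10.31 and 10.27 in cytosolic and 10.42 and 9.56 in polysome mRNA of Foxp3+ cells and 5.64, 5.70, 6.01 and 5.36 in Foxp3- cells. Lag3, a receptor for MHC class II, lay from 9.41 to 9.89 against 6.61 to 7.12, a difference of 2.92 (SE 0.16, adjusted p = 1.1e-05). Icos, a costimulator of the CD28 family, differed by 2.43 (SE 0.21). Pdcd1lg2 (PD-L2), a ligand of PD-1, lay from 7.84 to 7.99 on Foxp3+ arrays and from 4.87 to 5.36 on Foxp3- arrays. Its difference was 2.87 (SE 0.13, adjusted p = 5.6e-06), and PD-1 itself, Pdcd1, was higher by 1.18. Cd200 (1.29), Cd80 (0.82) and Cd200r1 (0.50) complete the higher members. Called lower were Btla, an inhibitory receptor, by -1.31 (SE 0.25), Cd28, the main costimulator, by -0.82 (SE 0.17), and Cd226 (-0.58). Over both fractions the highest Cd28 array of Foxp3+ cells (8.76) lay above the lowest of Foxp3- cells (7.96).

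The TNF receptor superfamily and its NF-kB signalling genes leaned upward, with 9 of 22 measured called higher, 1 lower and a median of 0.42. The share called was 45.5%, against 29.5% of all genes. Tnfrsf4 (OX40), a costimulatory receptor, was among the brightest genes of Foxp3+ cells at 12.47 and 12.52 in cytosolic and 12.79 and 13.01 in polysome mRNA, against 8.56, 8.63, 9.41 and 9.64 in Foxp3- cells. Tnfrsf9 (4-1BB), also costimulatory, stood at 10.01, 9.78, 9.73 and 9.46 against 6.79, 6.54, 6.01 and 5.59. Both were apart on all arrays, by 3.63 (SE 0.14, adjusted p = 3e-06) and 3.51 (SE 0.17, adjusted p = 5.9e-06). Tnfrsf1b (TNF receptor 2) was higher by 1.61 (SE 0.13). Tnfrsf18 (GITR) was bright in both subsets, with means of 12.4 and 11.4, and differed by 0.92 (SE 0.11). Signalling members called higher were Rel (0.93), Relb (0.75) and the feedback inhibitors Tnfaip3 (1.07) and Nfkbia (0.76), while the adaptor Traf5 was lower (-0.61).

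Since members of this family signal to NF-kB, promoters were searched for a consensus of its binding (the letters in capitals in the first site printed here) on both strands of the 250 bases before the gene start in RefSeq sequences of GRCm38.p6. This motif was picked after the values were seen, and a match is no proof of binding. Of 12585 genes with a promoter, 27 (0.215%) held it, among them 4 of the 310 genes higher by at least 2-fold (1.29%) and 0 of the 686 lower ones. The 4 sites are shown because they are the only matches among the 2-fold genes. They are printed on the strand of the gene, with the motif or its reverse complement in capitals.
Anxa4, chr6:86793620-86793649, minus strand: tctccggggaGGGACTTTCCtgtgggcaaa
Birc5, chr11:117849183-117849212, plus strand: ggcgtggggcGGGACTTTCCcggctcgcct
Myadm, chr7:3290466-3290495, plus strand: ctgaatgaagGGAAAGTCCCttttcaccgc
Pglyrp1, chr7:18884587-18884616, plus strand: ggtctgggtcGGAAAGTCCCgcccaggtgt
The differences of these genes were 1.15 (SE 0.10) for Anxa4, an annexin, 1.65 (SE 0.27) for Birc5 (survivin), 1.08 (SE 0.12) for Myadm, a membrane protein, and 2.50 (SE 0.13) for Pglyrp1, a peptidoglycan-binding protein. Of the other motifs searched, AP-1 (TGANTCA) was in 7.10% of higher and 4.37% of lower genes against 6.74% of all, and a forkhead motif (TGTTTAC), of the family to which Foxp3 belongs, in 3.87% and 2.92% against 2.96%. The ETS motif CCGGAAGT was in 3.87% of higher and 7.0% of lower genes against 5.11% of all, and the CRE motif TGACGTCA in 1.29% and 3.50% against 2.60%.

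Surface and effector molecules known from regulatory T cells were the list with the largest share called higher, regulatory T cell markers apart. Of 40 measured members of a list of 48, 35 were called higher, 27 of them at least 2-fold, and only P2rx7, an ATP-gated channel, was called lower (-0.62), while the list median was 1.64. Among all genes 14.3% were called higher, and 2.48% were called and at least 2-fold higher. Many of these members are known from earlier expression studies of the same kind of cells, so their direction was set by the choice. Itgae (CD103), the integrin chain that binds E-cadherin of epithelia, stood at 10.56 and 10.84 in cytosolic and 10.51 and 10.82 in polysome mRNA of Foxp3+ cells, against 5.24, 5.19, 4.61 and 4.63. Klrg1, an inhibitory lectin-like receptor of antigen-experienced cells, stood at 10.46, 10.05, 9.31 and 8.83 against 6.33, 5.81, 5.65 and 4.48. Neither overlapped between the subsets, and the differences were 5.76 (SE 0.15, adjusted p = 5.9e-07) and 4.09 (SE 0.26, adjusted p = 2.4e-05).

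Most suppressive cytokines and effector molecules measured were higher. Il10 stood at 8.03 and 7.43 in cytosolic and 7.75 and 6.23 in polysome mRNA of Foxp3+ cells, while all Foxp3- arrays lay from 3.85 to 4.10. Its difference was 3.41 (SE 0.31, adjusted p = 0.00015). Ebi3, a subunit shared by IL-27 and IL-35, lay from 8.44 to 8.89 against 5.02 to 5.81 and differed by 3.32 (SE 0.19), while Il12a, the other subunit of IL-35, differed by 0.17 and was not called. Gzmb (granzyme B), a protease of cytotoxic granules, lay from 6.71 to 6.96 against 3.77 to 3.95, a difference of 2.96 (SE 0.11, adjusted p = 3e-06). The ectoenzymes that turn ATP into adenosine were both higher, Entpd1 (CD39) by 2.21 (SE 0.19) and Nt5e (CD73) by 1.07 (SE 0.12), and Nrp1, a semaphorin receptor, by 2.10 (SE 0.34). Their Foxp3- means lay under the lowest array median. Izumo1r (folate receptor 4) was bright in both subsets and higher by 1.64 (SE 0.11). Tgfb1, a suppressive cytokine, was higher by 0.50, and Fgl2, a secreted suppressive molecule, by 1.11. Sdc4, a heparan sulfate proteoglycan, stood at 9.74, 9.87, 9.71 and 9.34 against 6.92, 5.66, 7.28 and 6.41, so its Foxp3- arrays were spread more widely than its Foxp3+ arrays.

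Other genes at the top belonged to no list. C2cd4b had means of 9.83 in Foxp3+ and 5.60 in Foxp3- cells (4.22, SE 0.30). Cyp4f18, a cytochrome P450 that acts on leukotriene B4, lay from 8.31 to 8.87 against 4.12 to 5.23 (3.93, SE 0.21). Tmbim1, a membrane protein of the BAX inhibitor motif family, lay from 9.04 to 9.47 against 5.83 to 6.33 (3.28, SE 0.13). All were apart on every array. Morrbid, a long noncoding RNA transcribed near the death gene Bcl2l11 and known to repress it in myeloid cells, stood at 8.24 and 7.61 in cytosolic and 7.48 and 7.60 in polysome fractions of Foxp3+ cells against 4.75, 4.80, 4.03 and 3.56. Its difference was 3.45 (SE 0.19, adjusted p = 1.3e-05), and Bcl2l11 was lower by -0.64 (SE 0.18, adjusted p = 0.027).

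Homing receptors differed in both directions, 11 higher and 11 lower of 32 measured, with a median of -0.05. The share called was 68.75%, against 29.5% of all genes. Chemokine receptors called higher included Ccr8 by 2.55 (SE 0.21), Ccr6 by 2.08 (SE 0.19), Ccr4 by 1.16, and Ccr10, Ccr9, Cxcr3 and Cxcr5 by 0.96 to 0.98. The adhesion receptors Icam1, at 9.95 to 10.41 against 8.58 to 9.05 (1.44, SE 0.10), and Cd44 (0.96) were also higher. Other receptors were called lower. Ccr7, which guides T cells into lymph nodes, lay from 8.88 to 9.88 on Foxp3+ arrays and from 11.37 to 12.38 on Foxp3- arrays. That difference was -2.55 (SE 0.23, adjusted p = 0.00014). S1pr1, which lets T cells leave lymph nodes, differed by -1.69 (SE 0.23), and Cxcr6, a receptor of effector cells, by -2.18 (SE 0.40), with 1 Foxp3- array at 4.15 inside the Foxp3+ range of 2.95 to 4.54. Integrin chains Itga4, Itga6, Itgb1 and Itgb7 were lower by -0.47 to -0.73.

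Most measured genes of naive and quiescent T cells were called lower. Of 41 measured, 33 were called lower, 22 at least 2-fold, and 1 higher, Igf1r (0.56), with a list median of -1.04. Beside Lef1, Satb1, Il7r, Ccr7 and S1pr1 the furthest were Pde3b, a phosphodiesterase that degrades cAMP, and Amigo2, a leucine-rich adhesion protein. Pde3b stood at 5.52 and 6.03 in cytosolic and 6.08 and 4.86 in polysome mRNA of Foxp3+ cells against 8.95, 9.14, 9.12 and 8.89 (-3.40, SE 0.25, adjusted p = 5.2e-05). Amigo2 lay from 3.46 to 3.89 against 6.20 to 7.44 (-3.14, SE 0.22). Igfbp4, a binding protein of insulin-like growth factors, was lower by -2.65 (SE 0.15) and Rflnb, a regulator of filamin, by -2.43 (SE 0.10). Factors that hold T cells in quiescence were lower too: Klf2 by -0.84, Foxp1 by -1.04, Slfn2 by -2.04 and the antiproliferative gene Btg2 by -1.97. Slfn1, another Schlafen gene of quiescent T cells, stood at 5.89, 6.33, 5.18 and 6.72 against 10.19, 9.55, 8.03 and 9.04, with no overlap (-3.17, SE 0.40, adjusted p = 0.00076). Of all genes, 15.3% were called lower, and 5.32% were called and at least 2-fold lower. The members of this list were chosen with earlier results of these data known, so its count may owe to that choice.

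Components of T cell receptor signalling were called lower more often than higher, and early response genes higher more often than lower. Of 34 TCR complex and proximal signalling genes 17 were called lower and 3 higher, and 14 were not called, with a median of -0.55, where 15.3% of all genes were called lower and 14.3% higher. The Tec family kinase Txk lay from 4.96 to 5.48 on Foxp3+ arrays and from 7.29 to 7.87 on Foxp3- arrays (-2.37, SE 0.17). Prkcq, the protein kinase C at the T cell synapse, differed by -1.82 (SE 0.19), Dgka, which breaks off diacylglycerol signalling, by -1.75 (SE 0.19), Tec by -1.38 (SE 0.10) and the phosphatase Ptpn6 (SHP-1) by -1.10 (SE 0.11). Zap70 (-0.88), Lat (-0.74), Vav1 (-0.96) and the phosphatases Ptprc (-1.07) and Ptpn22 (-1.32) were lower by less. Activating and inhibiting components were therefore both among the lower genes. The members called higher were Cd3e, Sla (0.71), an adaptor that lowers surface TCR, and Nfatc2 (0.31).

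Of 34 early response genes of TCR signalling, 15 were called higher, 9 at least 2-fold, 3 were called lower and 16 were not called. Their median was 0.51, and 52.9% were called, against 29.5% of all genes. Cd83, a surface molecule of activated lymphocytes and dendritic cells, stood at 11.05 and 10.95 in cytosolic and 10.78 and 10.91 in polysome mRNA of Foxp3+ cells, against 7.41, 7.18, 7.43 and 6.95 (3.68, SE 0.13, adjusted p = 3e-06). Rgs1, which damps chemokine receptor signals, lay from 7.77 to 8.39 against 5.31 to 5.95 (2.46, SE 0.18). Dusp5, a nuclear phosphatase of ERK, was higher by 1.85 (SE 0.21) and Dusp1 by 2.10, while Dusp6, the cytoplasmic ERK phosphatase, stood at 6.75, 6.30, 5.64 and 4.59 against 8.70, 8.34, 7.76 and 7.49 (-2.25, SE 0.24). Phosphatases of the same family thus differed in opposite directions. Nr4a1, a nuclear receptor induced by TCR signals, was higher by 1.39 (SE 0.16), Klf4 by 1.43, Ier3 by 1.36 and Egr3 by 0.89. Fos differed by 1.30 and Nr4a2 by 0.53, neither of them called.

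**Figure D4:**
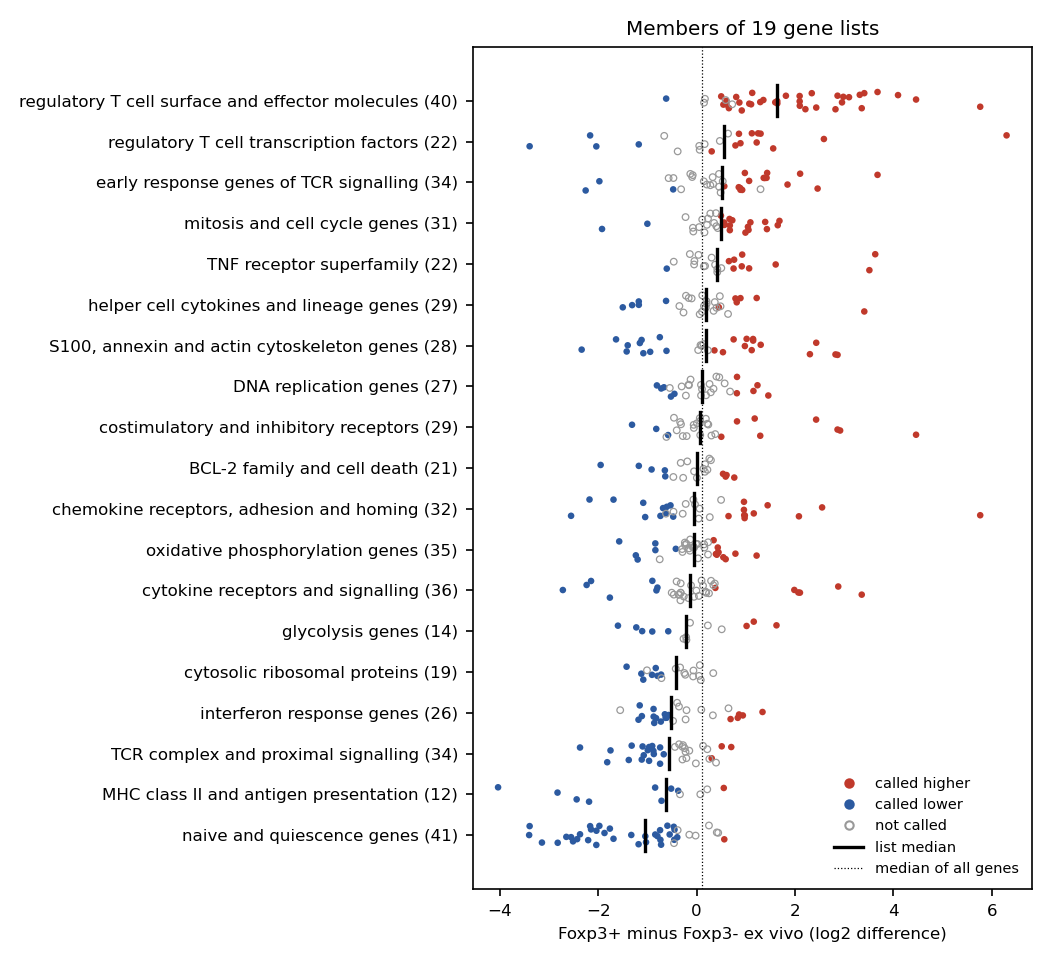
Foxp3+ minus Foxp3- difference ex vivo (log2, x axis) of each measured member of 19 gene lists, ordered by list median, with members called higher in red, called lower in blue and not called in open grey, the list median as a bar and the median of all genes (0.10) as a dotted line. The surface and effector molecules of regulatory T cells have the highest median (1.64) and the naive and quiescence genes the lowest (-1.04).

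Helper lineage genes were called in both directions. Of 29 measured, 6 were called higher and 5 lower (37.9% called, against 29.5% of all genes), with a median of 0.19, and 11 were dim in both subsets. Id3, an inhibitor of E proteins, was higher by 0.82 (SE 0.11), while its relative Id2 was lower, at 7.35 to 8.25 against 9.21 to 9.90 (-1.50, SE 0.20, adjusted p = 0.00095). Il21, a cytokine of follicular helper cells, was lower by -1.31 (SE 0.17) with both means under the lowest array median, and Fasl, the ligand of the death receptor Fas, by -1.17. With Tbx21 and Eomes (-0.62) the factors of type 1 and cytotoxic differentiation were both called lower.

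Cell death genes were apart by smaller amounts. Of 21 measured, 4 were called higher and 5 lower (42.9% called, against 29.5% of all genes), with a median of 0.01. Bcl2, which keeps naive T cells alive, was lower by -0.91 (SE 0.15, adjusted p = 0.003), and Bcl2l1 (Bcl-xL), a relative with the same action, higher by 0.61. The death gene Bbc3 (Puma) was higher by 0.77 (SE 0.13). Casp8, the initiator caspase of death receptors, was lower by -1.95 (SE 0.29), at 3.99 to 5.25 against 6.49 to 7.33.

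Mitosis and cell cycle genes were called higher more often than lower in Foxp3+ cells, many of them at low levels. Of 31 measured, 16 were called higher and 2 lower (58.1% called, against 29.5% of all genes). The list median was 0.50, and 13 had means under the lowest array median in both subsets. The summed level of the 31, in which bright members weigh most, went the other way. It ran from 11.957 to 12.148 (log2) on Foxp3+ arrays and from 12.182 to 12.305 on Foxp3- arrays, without overlap. The bright D cyclin Ccnd3, lower in Foxp3+ cells as given below, is part of this sum. The sum without Ccnd3 was not taken, so it does not show that the other members were lower together. Cdc20, which activates the anaphase-promoting complex, lay from 9.21 to 9.82 against 8.20 to 8.90 (1.04, SE 0.16). Birc5, a subunit of the chromosomal passenger complex, lay from 5.33 to 6.24 against 3.55 to 4.55, and Ccnb2 (cyclin B2) differed by 1.68 (SE 0.38) with some overlap. The inhibitors Cdkn1b (p27, 1.39), Cdkn2c (p18, 1.09) and Cdkn1a (p21, 0.73) were higher as well. The 2 lower members were D cyclins: Ccnd3, which drives entry into the cycle, stood at 8.96 and 8.71 in cytosolic and 9.05 and 8.94 in polysome mRNA against 10.87, 10.94, 10.79 and 10.74 (-1.92, SE 0.11, adjusted p = 1.6e-05), and Ccnd2 was the other. Mki67, the usual marker of cycling cells, differed by 0.40 and was not called. DNA replication genes were divided, 5 higher and 5 lower of 27 (37.0% called) with a median of 0.11. The nucleotide supply genes Tk1 (1.16, SE 0.20) and Rrm2 (1.46) and the initiation factors Cdc6 (1.24) and Cdc45 (0.82) were higher, and the helicase subunits Mcm3 (-0.81) and Mcm7 (-0.66) lower, while Mcm6 was higher (0.82).

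Oxidative phosphorylation and glycolysis genes were called in both directions, and ribosomal protein genes in 1 direction. Of 35 oxidative phosphorylation genes 10 were called higher and 6 lower (45.7% called, against 29.5% of all genes), with a median of -0.05. Ndufb8, a subunit of complex I, was higher by 1.22 (SE 0.13). Of the 4 subunits of complex II, Sdhc (-1.57, SE 0.18), Sdhd (-1.23) and Sdha (-0.84) were lower and Sdhb (0.54) higher. Of 14 glycolysis genes 3 were higher and 5 lower (57.1% called), 3 of each at least 2-fold. The glucose transporter Slc2a3 differed by 1.16 (SE 0.11), the aldolase Aldoc by 1.62 (SE 0.18) and Pdk1, which turns pyruvate away from mitochondria, by -1.60 (SE 0.16). Aldoa, a relative of Aldoc, was lower by less than 2-fold (-0.90). Of 19 cytosolic ribosomal protein genes with a symbol, of 79 listed, 0 were called higher and 7 lower, 3 of these at least 2-fold. Their median was -0.42, and the share called (36.8%) was near that of all genes. Rps9 had the smallest adjusted p of them and lay at most at 12.61 on Foxp3+ arrays, with a mean difference of -1.42 (SE 0.16). The median over the brightest genes of the arrays was also below 0, as given with the controls.

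Several actin-binding proteins were lower, while S100 proteins and galectins were higher. Of 28 genes of this list 13 were called higher and 10 lower (82.1% called, against 29.5% of all genes). S100a4 stood at 12.70 and 12.63 in cytosolic and 12.40 and 12.29 in polysome mRNA of Foxp3+ cells against 9.71, 9.80, 9.79 and 9.26 (2.87, SE 0.13, adjusted p = 5.5e-06), and S100a6, also a calcium-binding protein of memory-type T cells, differed by 2.82 (SE 0.13). Capg, which caps actin filaments (2.43, SE 0.11), Lgals3 and Lgals1, galectins (2.30 and 1.02), and Ahnak (1.30), Anxa2 (1.15) and Lmna (1.12) were also higher. The linkers of actin to the membrane, Msn (moesin) and Ezr (ezrin), were lower by -2.33 (SE 0.23) and -1.40, and Flna (filamin A) and Tmsb4x (thymosin beta 4) by -1.12 and -0.94. Msn lay from 6.29 to 6.66 against 8.35 to 9.69.

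Interferon response genes were lower more often than higher, 12 against 5 of 26 measured, with a median of -0.52. The share called was 65.4%, against 29.5% of all genes. Usp18, which removes ISG15 and limits the receptor, was lower by -1.18 (SE 0.13), and Irf7 (-0.86), Oas3 (-1.16) and the immunoproteasome subunits Psmb8 and Psmb9 (-0.87 each) were lower as well. Gbp3, a guanylate-binding protein (1.34), and Ifi27l2a (0.94, SE 0.14), were higher. The list thus held called members in both directions.

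Of 12 measured genes of MHC class II and antigen presentation, 8 were called lower in Foxp3+ cells, 4 of them at least 2-fold. A further 1 was called higher and 3 were not called, with a median of -0.61. The share called was 75%, against 29.5% of all genes. H2-Ab1, a class II beta chain, lay from 4.26 to 5.10 on Foxp3+ arrays and from 8.11 to 9.36 on Foxp3- arrays (-4.03, SE 0.29, adjusted p = 5e-05). H2-Aa, its alpha chain, differed by -2.83 (SE 0.28) and H2-Eb1 by -2.44 (SE 0.26). The invariant chain Cd74 differed by -0.34 (SE 0.22) and was not called, Ciita, the master regulator of the class II genes, by 0.08, and H2-Oa was called higher (0.55). Pou2af1, a coactivator known from B cells, stood at 2.89, 3.11, 2.47 and 3.46 against 8.02, 7.66, 7.15 and 6.71 (-4.40, SE 0.26, adjusted p = 1.6e-05), the largest difference on the lower side. The subsets were apart on all arrays for H2-Ab1, H2-Aa, H2-Eb1 and Pou2af1. Of 7 measured B cell markers, 4 were called lower, Blk (-1.15, SE 0.15), Ms4a1 (-0.89, SE 0.18), Cd22 (-0.73, SE 0.13) and Fcer2a (-0.42), and Cd79b was called higher (0.56, SE 0.16). The defining B lineage factors Pax5 and Ebf1 differed by 0.06 and -0.01 and lay at most at 4.44, below the lowest array median. The summed level of the 7 markers ran from 8.86 to 9.33 (log2) on Foxp3+ and from 8.68 to 9.30 on Foxp3- arrays. The part of B cells in these differences was not tested.

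Some markers of other cell types were called, in both directions, where 29.5% of all genes were called. Of 12 myeloid and dendritic cell markers Cst3 (0.68) and Zbtb46 (0.58) were called higher and none lower, and Lyz2 and Csf1r were not called. The summed level of these 12 ran from 10.63 to 10.97 (log2) on Foxp3+ arrays and from 10.04 to 10.35 on Foxp3- arrays, without overlap. Of 7 NK cell markers Prf1 (perforin, -2.30, SE 0.14) and Klrd1 (-1.48, SE 0.34) were called lower and Nkg7 higher (0.55), while Ncr1 and Klrb1c were not called and differed by -0.01 and 0.21. The summed level of the 7 ran from 9.57 to 9.99 on Foxp3+ and from 9.94 to 10.6 on Foxp3- arrays. Of 5 granulocyte markers 2, Mpo (0.46) and Camp (0.41), were called higher. Of 4 plasma cell markers Prdm1 (1.12), which regulatory T cells also express, was called higher, while the lowest of the 4 differed by -1.20 and was not called. Of 8 stromal and endothelial markers Pecam1 (-0.86) was called lower. The part of such cells in the subset differences was not tested.

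Other genes at the lower end belonged to no list. Pdlim4, an actin-associated PDZ and LIM protein, stood at 6.15 and 5.91 in cytosolic and 7.33 and 5.97 in polysome mRNA of Foxp3+ cells against 9.92, 10.07, 10.97 and 11.42 (-4.26, SE 0.28). Sema4a, a semaphorin that acts on T cells, lay from 5.59 to 6.78 against 9.98 to 10.21 (-3.73, SE 0.19), and Rnf145, a ubiquitin ligase of the sterol pathway, from 6.44 to 8.12 against 9.92 to 11.33 (-3.41, SE 0.41). These genes were bright in Foxp3- cells and above the lowest array median in both subsets. Pxylp1 (-3.70), Wnt5b, a Wnt ligand (-3.63), Amz1, a metallopeptidase (-2.92), Ehhadh, an enzyme of peroxisomal fatty acid oxidation (-2.92), and App, the amyloid precursor protein (-2.87), had Foxp3+ means of 3.06 to 4.58, under the lowest array median.

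The subset comparison was also made within each RNA fraction. With 2 arrays against 2 in each, 2409 genes (14.6%) were called in cytosolic mRNA, 1004 (6.09%) higher and 1405 (8.53%) lower, and 2218 (13.5%) in polysome-associated mRNA, 889 (5.4%) higher and 1329 (8.07%) lower. The cytosolic count was 532 without array 3, 1020 without array 1, 1491 without array 5 and 1130 without array 7, and the polysome count was 739 without array 4 and 1141 without array 8. Across all 16475 genes, which are not independent replicates, the differences in the 2 fractions had r = 0.791. The difference between fractions was called in 0 genes by limma, with 1152 (6.99%) at an unadjusted p under 0.05 and 1 gene at an adjusted p under 0.3. The median size of that difference was 0.35 among the 1285 genes. For Ehhadh the subset difference was -3.70 in cytosolic and -2.13 in polysome mRNA, and for Foxp3 6.72 and 5.88. Neither passed the test, with adjusted p = 0.53 and 0.59.

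The same subsets were measured after activation on 8 other arrays, which share no array with the ex vivo comparison. Their difference was tested in a fit of all 16 arrays, with 1 estimate of the spread, and 4376 genes (26.6%) were called. With the spread estimated in that way, 1130 genes were called ex vivo. Activated cells had been kept on antibodies to CD3 and CD28 with IL-2, and there each subset was an array series of its own, so that array series and subset cannot be told apart. Of the 408 genes higher ex vivo by at least 2-fold, 289 (70.8%) were also higher after activation and 127 (31.1%) were called higher, where 62.1% of all genes were higher and 14.3% were called higher. Of the 877 lower genes, 632 (72.1%) were also lower after activation and 267 (30.4%) were called lower, where 37.9% of all genes were lower and 12.2% were called lower. Called in the opposite direction were 41 of the 408 and 45 of the 877.

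The test of the difference between the states called 1138 genes (6.91%), 653 (3.96%) with a higher and 485 (2.94%) with a lower Foxp3+ minus Foxp3- value ex vivo. Leaving out any 1 of the 8 ex vivo arrays gave 609 to 749 genes, the fewest without array 7. Of the 15 genes furthest up ex vivo, 12 remained higher after activation, 10 of them called, and the state difference was called in 10. Of the 15 furthest down, 10 remained lower, 1 of them called (Pde3b), and the state difference was called in 12. Both sets were picked for the size of their ex vivo difference, which also enters this test. A smaller difference after activation and more calls than over all genes were therefore partly set by the choice. Ctla4 differed by 4.46 ex vivo and 5.59 (SE 0.41) after activation, and the 2 values were not shown to differ (adjusted p = 0.30, limma over 16 arrays). Cd83, by contrast, differed by 3.68 and -0.32 (SE 0.44), and Morrbid by 3.45 and -0.19 (SE 0.46), with a called state difference in both. Lef1 differed by -3.39 and 0.74 (SE 0.51), and H2-Ab1 by -4.03 and -0.14 (SE 0.40), with a called state difference in each. By list, the median after activation was 1.03 for the surface and effector molecules of regulatory T cells and 0.14 for the naive genes, against 0.18 for all genes. For early response genes it was -0.17 and for mitosis and cell cycle genes -0.81.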

How the data were processed

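Cytosolic and polysome-associated mRNA was measured on Affymetrix mouse arrays after whole-transcriptome amplification. The authors summarised redefined probe sets (1 per Entrez gene) by RMA and deposited log2 intensities, which were used as they are; versions are not given in the sources used here, and no background or depth values were used, so the number of arrays limits precision. The table holds 16539 features. Of these, 64 are control probe sets and 16475 were tested as genes, 695 of them without a symbol in the platform annotation and not named here. Groups came from the sample labels. The subsets were compared with limma 3.58.1 in R 4.3.3 (lmFit and eBayes, two-sided, Benjamini-Hochberg over all genes, adjusted p under 0.05), with RNA fraction as a blocking term over the 8 ex vivo arrays, 5 residual degrees of freedom and a median residual SD of 0.202. Differences between fractions used 1 mean per group on the same arrays. The subset difference after activation and the difference between states used all 16 arrays. The fit was tested on simulated data with independent noise on each array. That test does not bear on arrays that share a preparation or on the 3' to 5' gap. SDs are between arrays and SEs are those of the fit.

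Genes were named by a rule: the 15 furthest apart in each direction among called genes, not overlapping in either fraction and above the median level in the higher subset; up to 4 members of each of 29 gene lists with the smallest adjusted p; up to 5 genes for the fraction and the state difference; and cell type markers. Predicted genes and odorant receptors were left out. Other list members in the text were picked after their values were seen. The lists hold 735 entries, of which 592 were measured under their symbol. The members and lists were chosen with earlier results of these data known. Alternatives were other scalings, array weights, an intensity trend, a filter on dim genes, other sets of arrays, the array pairs as a random block, and leaving out each array. Python 3.11.15 served for summaries (pandas 2.3.3) and plots (matplotlib 3.10.9). The table held no column without a sample.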

Additional observations from a re-analysis of the deposited data

Results flagged for a closer look

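The subset difference was called apart between the states, ex vivo minus activated, for 10 of the 15 genes furthest up ex vivo: Foxp3 by 2.01, Itgae by 1.28, C2cd4b by 3.52, Cyp4f18 by 2.44, Cd83 by 4.0, Tnfrsf4 by 2.85, Tnfrsf9 by 1.35, Morrbid by 3.63, Il2ra by 1.57 and Tmbim1 by 4.04. For 12 of the 15 furthest down it was called as well: Pou2af1 by -2.85, Pdlim4 by -4.07, H2-Ab1 by -3.89, Sema4a by -2.75, Pxylp1 by -3.28, Wnt5b by -3.21, Lef1 by -4.13, Slfn1 by -3.79, Amigo2 by -3.28, Amz1 by -3.11, Ehhadh by -2.49 and App by -3.19. These genes were picked for the size of their ex vivo difference. Among other named genes the states differed for Cd4 (-1.76), Tec (-3.69) and Rflnb (-2.42); Cd4 and Tec were lower in Foxp3+ cells ex vivo and higher after activation. Subset and array series cannot be told apart after activation.

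Array 7, cytosolic, lay apart from the other Foxp3- arrays in the 3' minus 5' actin difference, at 1.38 against 0.82 to 0.85. Chance marks about 1 in 20 such groups of 4 arrays.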

How the results depend on the processing

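Of 337 genes named or called in a list, 168 kept direction and call under every alternative that held them, among them the 30 furthest apart. Called genes numbered 1130 with the spread estimated over all 16 arrays (452 at least 2-fold lower) and 7929 at an adjusted p under 0.15. At 0.15 the cytosolic count was 4692 and the polysome count 4705; from the polysome arrays alone it was 1038; the fraction difference was called in 1 gene at 0.3. Leaving out each array gave 3055 to 4371 called genes, 399 to 448 at least 2-fold higher, 733 to 975 at least 2-fold lower, 532 to 2789 in cytosolic and 739 to 2024 in polysome mRNA, 0 for the fraction difference and 609 to 1659 for the state difference; a lone array in a group was assumed to vary like the others. The sign of small differences turned. Cd8b1 was 0.037 with quantile normalization and -0.27 to 0.027 leaving out each array. Sdc1 was -0.048, -0.068 and -0.011 with centring, loess and quantile normalization and -0.018 to 0.11 leaving out each array, and Alas2, the only erythroid marker, was -0.011, -0.10 and -0.071 with the same scalings. List medians turned with centring for costimulatory and inhibitory receptors (-0.012), cell death genes (-0.080), NK markers (-0.041) and erythroid markers (-0.011), with loess for oxidative phosphorylation (0.12), NK markers (-0.12) and erythroid markers (-0.10), in cytosolic mRNA for chemokine receptors (0.12), oxidative phosphorylation (0.045) and CD8 markers (-0.17), and in polysome mRNA for cell death genes (-0.040), oxidative phosphorylation (0.0012) and erythroid markers (-0.070). Others moved without a turn: naive genes to -1.26 and granulocyte markers to 0.15 in cytosolic mRNA, regulatory T cell markers to 2.61 and CD8 markers to 0.38 in polysome mRNA, and stromal markers to 0.058 with loess. The cause was not tested. No pairing of arrays across the subsets was tried, as the labels number arrays 1 to 16 and the subsets share no replicate number. The array pairs within a subset, assumed from consecutive numbers or crossed, had consensus correlations of 0.02 to -0.22.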

Other observations

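The next 15 genes in each direction under the same rule hold further surface, signalling and metabolic genes. On the higher side were Penk, the precursor of enkephalins (2.98, SE 0.29), Nrn1, a membrane-anchored protein known from neurons (2.88, SE 0.25), the growth arrest gene Gadd45b (2.83, SE 0.18), Slc7a10, an amino acid transporter (2.84, SE 0.19), Csrp2, a LIM protein (2.84, SE 0.30), Ptprv (2.78, SE 0.13) and Naprt, an enzyme of NAD synthesis (2.66, SE 0.16). Penk, Nrn1, Slc7a10 and Csrp2 had Foxp3- means under the lowest array median.

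On the lower side were Dapl1 (-2.82, SE 0.24) and Nsg2 (-2.51, SE 0.25) of the naive list, Ramp3, a partner of the calcitonin receptor family (-2.81, SE 0.16), Ggt5, which cleaves glutathione conjugates (-2.80, SE 0.14), the splicing factor Rbm17 (-2.75, SE 0.39), the tetraspanin Cd9 (-2.45, SE 0.26) and the nuclear pore subunit Nup153 (-2.46, SE 0.36). Spib, a factor of B cells and plasmacytoid dendritic cells, was lower as well (-2.67, SE 0.14), with means of 3.79 and 6.46. The part of such cells was not tested.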
